A study of Homo sapiens with 6 samples.

Results

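AP-1 is a family of dimeric transcription factors built from JUN and FOS proteins, and this account follows the transcripts of 10 genes of that family and its relatives: JUN, JUNB, JUND, FOS, FOSB, FOSL1, FOSL2, ATF3, BATF3 and MAF. They were picked by gene symbol out of 58721 genes in the count table, with their levels in these libraries known, so their differences between the groups are described here and not tested. Counts came from 6 libraries of HEK293T, a human embryonic kidney line grown in serum-containing medium. 3 libraries came from wild type cells and 3 from cells in which ALKBH5 and FTO had been knocked out with CRISPR/Cas9. Both genes encode enzymes that remove methyl groups from adenosine in RNA. Neither group had a further treatment in the labels, and both were lysed in buffer with cycloheximide, a translation inhibitor. The RNA came from cleared detergent lysates, was depleted of ribosomal RNA, and the labels name no poly(A) selection. The deposited wild type columns carry the name HEK293G6, which the labels do not explain, and the sources used here do not state the number of knockout clones. A difference between cell lines and the effect of the knockout cannot be told apart. Lower counts from fewer expressing cells and from less RNA per cell cannot be told apart either.

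AP-1 proteins share a basic region that touches DNA and a leucine zipper that pairs them (bZIP). JUN proteins pair with each other or with FOS proteins, whereas FOS proteins need a JUN partner. The dimers bind the AP-1 site and, with ATF partners, the cAMP response element (CRE). FOS, FOSB, JUN, JUNB and ATF3 are classic early response genes, transcribed within minutes of growth or stress signals through kinases of the MAP kinase cascades, and their mRNAs are typically short-lived. ATF3 often acts as a repressor, BATF3 pairs with JUN proteins without an activation domain of its own, and MAF is a larger relative that binds longer elements and acts in lens, kidney and lymphocyte development.

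Promoter sequences are shown first because several of these genes carry the very elements that their own products bind. RefSeq windows (GRCh38.p14, 250 bases before to 50 after the start) matched 8 of the 10 genes, all but FOSL1 and BATF3. Both strands were searched for the AP-1 site (TGACTCA or TGAGTCA), the CRE (TGACGTCA), a CRE with a single base changed (TGACATCA or TGATGTCA) and the CRE core of 6 bases (TGACGT or ACGTCA), which every CRE also contains. Of the 8 windows, 7 held a CRE, its variant or its core, and the JUNB window held none of the 4 motifs. The core stood in 5 of 8 windows, against 7.98% of 35116 windows in the table, and the full CRE in 2, against 1.85%. The 4 motifs were chosen after these windows were seen, so these shares and those given below are no evidence of enrichment. Matches are shown in capitals with their flanks, 30 bases each, 5′ to 3′ on the strand of the gene.
JUN: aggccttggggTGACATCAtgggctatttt
ATF3: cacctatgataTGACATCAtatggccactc
JUND: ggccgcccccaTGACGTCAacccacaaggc
JUND: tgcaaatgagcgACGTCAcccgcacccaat
FOS: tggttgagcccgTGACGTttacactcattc
FOSB: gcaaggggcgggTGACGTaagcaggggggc
FOSL2: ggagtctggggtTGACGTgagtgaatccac
MAF: tcatttggaccTGACGTCAcgagtgctata

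Counting back from the RefSeq start, the capitals begin at -67 in JUN (chr1:58784096-58784125, minus strand), -123 in ATF3 (chr1:212565273-212565302, plus strand), and -200 and -87 in JUND (chr19:18281804-18281833 and chr19:18281692-18281721, minus strand). They begin at -64 in FOS (chr14:75278752-75278781, plus), -60 in FOSB (chr19:45467924-45467953, plus), -66 in FOSL2 (chr2:28392780-28392809, plus) and -45 in MAF (chr16:79600764-79600793, minus). The variant with a single base changed stood in JUN and ATF3, against 2.61% of all windows. An AP-1 site stood in FOSL2 alone, at position 5 after the start, against 4.95% of all windows. In JUN, FOSL2, ATF3 and FOS the RefSeq start lies 280, 410, 73 and 54 bases inside the GENCODE gene, so part of these windows is transcribed in the GENCODE model. FOSB and MAF, which carry the core, were lower in the double knockout, and JUND, FOS and FOSL2, which also carry it, were higher. Any link between motif and direction was not tested. The 210 bases before the start are given for JUND and MAF, since both hold a complete CRE and their levels differed in opposite directions.
JUND, chr19:18281623-18281832, minus strand: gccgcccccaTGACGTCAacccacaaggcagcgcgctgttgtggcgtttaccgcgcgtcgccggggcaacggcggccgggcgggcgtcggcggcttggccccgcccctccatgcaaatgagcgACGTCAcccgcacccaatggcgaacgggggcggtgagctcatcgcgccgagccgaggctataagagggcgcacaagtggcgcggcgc
MAF, chr16:79600738-79600947, minus strand: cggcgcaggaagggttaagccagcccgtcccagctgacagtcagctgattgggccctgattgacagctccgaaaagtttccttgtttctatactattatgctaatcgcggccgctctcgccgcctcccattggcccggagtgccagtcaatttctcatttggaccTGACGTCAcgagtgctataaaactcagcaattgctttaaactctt
The CRE of MAF sits just upstream of its start, whereas that of JUND lies further away, with a second copy of the core nearer the start.

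Total gene counts lay between 5634648 and 7551825 per library, and a count of 0 allows a level of up to 0.407 to 0.545 CPM (counts per 1000000 counts, libraries scaled by TMM). Neither targeted transcript was lost from the double knockout, although FTO fell by 0.90 and ALKBH5 fell by 0.40 on the log2 scale (edgeR adjusted p = 4.00e-44 and 2.74e-22). Counts over a whole gene do not show the edited sites. All 7 markers listed for kidney and for this line passed the filter on low counts, 6 of them rising and 1 falling, with summed levels of 1056 to 1119 CPM in wild type and 1479 to 1483 CPM in double knockout. Markers of blood summed to 1.45 to 2.34 and 2.08 to 2.92 CPM, with CD3E at 0, and none of the 3 hepatocyte markers passed the filter. Of 5 fibroblast markers, 3 were tested and all 3 fell (summed level of the 5 16.7 to 19.7 CPM in wild type, 10.3 to 12.3 CPM in double knockout). Below the filter, PDGFRB went the other way with 4 reads in wild type and 16 in double knockout, and DCN had 0 and 1. Over all tested genes, 28.6% rose and 28.5% fell. The part of these marker differences in the results below was not tested.

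All 10 genes passed the filter on low counts, and the 2 groups of libraries overlapped in none of them. JUN, JUNB, JUND, FOS, FOSL1, FOSL2, ATF3 and BATF3 were higher in every double knockout library, and FOSB and MAF were lower in every one. This is 8 genes higher and 2 lower, and the same genes lay beyond the edgeR threshold of 0.05. Over all 14180 tested genes, 57.1% passed that threshold (28.6% higher and 28.5% lower), and the groups did not overlap in 60.6% (30.3% in each direction). At 2-fold or more, 6 of the 10 were higher and 1 lower, against 4.63% and 1.37% of all tested genes. Because the genes were chosen from this same comparison, nothing is read from these counts.

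**Figure D1:**
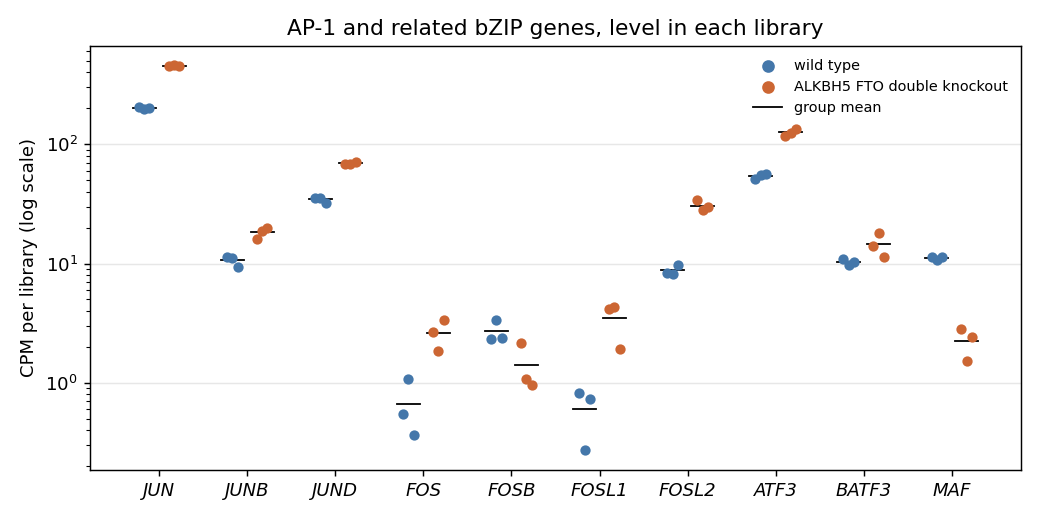
Level of each of the 10 genes in every library, in CPM on a log scale. Points are libraries (3 per group) and lines are group means. The groups do not overlap in any gene, and BATF3 and FOSB come closest to overlapping.

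JUN encodes the best-known AP-1 subunit and was the most abundant of the 10. JUN (ENSG00000177606.6, chromosome 1, 58780788 to 58784327, hg38, minus strand) had wild type levels of 205, 199 and 200.1 CPM and double knockout levels of 453, 460.0 and 456 CPM, in the order of the replicate numbers. Its libraries lay close together within each group and far apart between the groups, at 201 ± 3.43 and 456 ± 3.57 CPM (SD, n = 3 each). The fitted log2 fold change, double knockout over wild type, was 1.18 (SE 0.03), and rank 474 of 14180 when all tested genes were ordered from the highest. Its spread over wild type libraries, a coefficient of variation of 1.70%, was below the 2.72% that counting alone would give.

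JUND encodes the JUN protein usually found in resting cells and was second among the JUN genes. It had wild type levels of 35.3, 35.7 and 32.3 CPM and double knockout levels of 68.9, 68.0 and 71.7 CPM. The means were 34.5 ± 1.86 and 69.6 ± 1.91 CPM, and the log2 fold change was 1.01 (SE 0.07). JUNB, whose protein often restrains JUN, had wild type levels of 11.3, 11.1 and 9.44 CPM and double knockout levels of 16.2, 18.6 and 20.0 CPM. Every double knockout library thus exceeded every wild type library, with a log2 fold change of 0.77 (SE 0.13). JUND (ENSG00000130522.5, 18279760 to 18281622, minus strand) and JUNB (ENSG00000171223.5, 12791496 to 12793315, plus strand) both lie on chromosome 19. All 3 JUN genes have a single exon, which is so for 2.20% of the 12119 tested protein-coding genes. JUNB overlaps HOOK2 on the opposite strand. The library kit in the labels keeps strand, but the sources used here do not state whether counting used it. HOOK2 did not pass the test: its log2 fold change was 0.04, and turned to -0.069 with spike-in scaling and to -0.032 without double knockout replicate 1.

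FOSL2 was the most abundant FOS gene. Its product, FRA-2, lacks the strong activation domain of FOS. FOSL2 (ENSG00000075426.11, chromosome 2, 28392448 to 28417312, plus strand) had wild type levels of 8.39, 8.15 and 9.80 CPM and double knockout levels of 33.8, 27.9 and 29.8 CPM. The 3 double knockout libraries were all far above wild type, with means of 8.78 ± 0.895 and 30.5 ± 3.04 CPM and a log2 fold change of 1.80 (SE 0.12). FOSL1, which encodes the related FRA-1, was scarce (ENSG00000175592.8, chromosome 11, 65892049 to 65900573, minus strand). It had 6, 2 and 4 reads in wild type and 25, 28 and 12 in double knockout, or 0.608 ± 0.295 and 3.46 ± 1.34 CPM. Its ratio of summed, scaled counts was 5.81, with an exact 95% interval for counting error of 3.11 to 11.8, and the third double knockout library was below the other two. The log2 fold change of 2.50 (SE 0.40) was the highest of the 10 and rank 60 of all tested genes.

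FOS itself was also scarce. FOS (ENSG00000170345.9, chromosome 14, 75278774 to 75282230, plus strand) had 4, 8 and 2 reads in wild type and 16, 12 and 21 in double knockout. The ratio of summed, scaled counts was 3.76 (counting interval 2.04 to 7.37) and the log2 fold change 1.88 (SE 0.41). FOS and FOSL1 reached the filter's level in no wild type library and in all 3 double knockout libraries, so they entered the table only through the group in which they were high.

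FOSB, the closest relative of FOS, differed the other way. FOSB (ENSG00000125740.13, chromosome 19, 45467995 to 45475179, plus strand) had 17, 25 and 13 reads in wild type and 13, 7 and 6 in double knockout, or 2.34, 3.39 and 2.36 against 2.16, 1.08 and 0.960 CPM. The first double knockout library lay just below the lowest wild type library. The log2 fold change was -0.97 (SE 0.35), and the ratio of wild type to double knockout counts was 1.97 (counting interval 1.22 to 3.27). FOSB passed the filter through wild type, in which all 3 libraries reached its level, against 1 in double knockout. It overlaps ERCC1, a DNA repair gene, on the opposite strand, and the log2 fold change of ERCC1, -0.15, did not pass the test (it passed with spike-in scaling, with the replicate block and without wild type replicate 2, at -0.26, -0.15 and -0.20).

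ATF3 is a stress-induced gene that answers many signals. ATF3 (ENSG00000162772.16, chromosome 1, 212565334 to 212620777, plus strand) had wild type levels of 51.4, 54.9 and 56.6 CPM and double knockout levels of 118, 125 and 134 CPM. The groups were well apart at 54.3 ± 2.65 and 126 ± 7.83 CPM, with a log2 fold change of 1.22 (SE 0.06). BATF3, a factor known from dendritic cell development, lies on the opposite strand, 65641 bases beyond the end of ATF3 (ENSG00000123685.8, 212686418 to 212699985, minus strand). BATF3 had wild type levels of 11.0, 9.78 and 10.3 CPM and double knockout levels of 14.2, 18.2 and 11.4 CPM. Its double knockout libraries spread widely, with a coefficient of variation of 23.5% against 10.5% from counting, and the lowest of them was only just above wild type. The log2 fold change of 0.49 (SE 0.14) became 0.29 without double knockout replicate 2.

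MAF differed most toward lower values. MAF (ENSG00000178573.6, chromosome 16, 79585843 to 79600714, minus strand) had wild type levels of 11.4, 10.7 and 11.4 CPM and double knockout levels of 2.83, 1.54 and 2.40 CPM. The wild type libraries were tight at 11.2 ± 0.403 CPM, and none of the double knockout libraries, at 2.26 ± 0.658 CPM, came near them. MAF had 225 reads in wild type and 42 in double knockout, and the ratio of wild type to double knockout was 4.99 (counting interval 3.58 to 7.12). The log2 fold change was -2.31 (SE 0.21), and 18 of the 14180 tested genes had a lower one, MAF being rank 19 from the lowest. MAF reached the filter's level in all 3 wild type libraries, the group in which it was high, and in 2 of double knockout. The genes were chosen from this comparison, so nothing is read from the ranks of JUN, FOSL1 and MAF.

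Levels of different genes can be set side by side only per length, so CPM was divided by the kilobases covered by exons of each gene in GENCODE 29. On that scale JUN stood at 56.9 ± 0.969 in wild type and 129 ± 1.01 in double knockout, followed by JUND (18.5 ± 0.999 and 37.3 ± 1.02) and ATF3 (13.4 ± 0.657 and 31.1 ± 1.94). JUNB (5.83 ± 0.561 and 10.0 ± 1.07) and BATF3 (3.82 ± 0.225 and 5.37 ± 1.26) came next. In wild type MAF (1.60 ± 0.0578) and FOSL2 (1.23 ± 0.125) followed, and FOSB (0.486 ± 0.109), FOSL1 (0.322 ± 0.156) and FOS (0.206 ± 0.116) closed the order, with libraries of FOSL1 overlapping both neighbours. In double knockout FOSL2 (4.26 ± 0.424) lay near BATF3, with overlapping libraries, and was followed by FOSL1 (1.84 ± 0.710) and FOS (0.810 ± 0.234), whose libraries overlapped. MAF (0.323 ± 0.0943) and FOSB (0.252 ± 0.120) were then the lowest pair and overlapped. The order depends on the length used, which joins the exons of all transcripts of a gene. This length was 4040 bases for ATF3, 2713 for BATF3 and 6976 for MAF, against 2033, 980 and 2646 in their principal transcripts. For JUN, JUNB and JUND both lengths were equal. The order per principal transcript was not examined.

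Summed per length, the 3 JUN genes stood at 81.2 ± 2.06 in wild type and 176 ± 2.27 in double knockout, and the 4 FOS genes at 2.24 ± 0.0470 and 7.16 ± 0.897. On this scale JUN-family transcripts exceeded FOS-family transcripts 36.3 ± 1.67-fold in wild type and 24.9 ± 3.32-fold in double knockout. The libraries of the groups did not overlap in this ratio. The ratio depends on the length used, which exceeds that of the principal transcript for all 4 FOS genes and for no JUN gene. Shares within the JUN family differed by a few percentage points, without overlap between the groups: JUN took 70.1% ± 1.30 and 73.1% ± 0.763, JUND took 22.8% ± 0.798 and 21.2% ± 0.468, and JUNB took 7.17% ± 0.532 and 5.69% ± 0.537. Within the FOS family, FOSB took 21.7% ± 4.97 in wild type and 3.43% ± 1.18 in double knockout. FOSL2 took the largest share in both groups, 54.7% ± 4.52 and 59.7% ± 4.76. FOSL1 took 14.4% ± 7.03 and 25.3% ± 8.63, and FOS took 9.22% ± 5.24 and 11.5% ± 4.20, with overlapping libraries for FOSL2, FOSL1 and FOS.

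**Figure D2:**
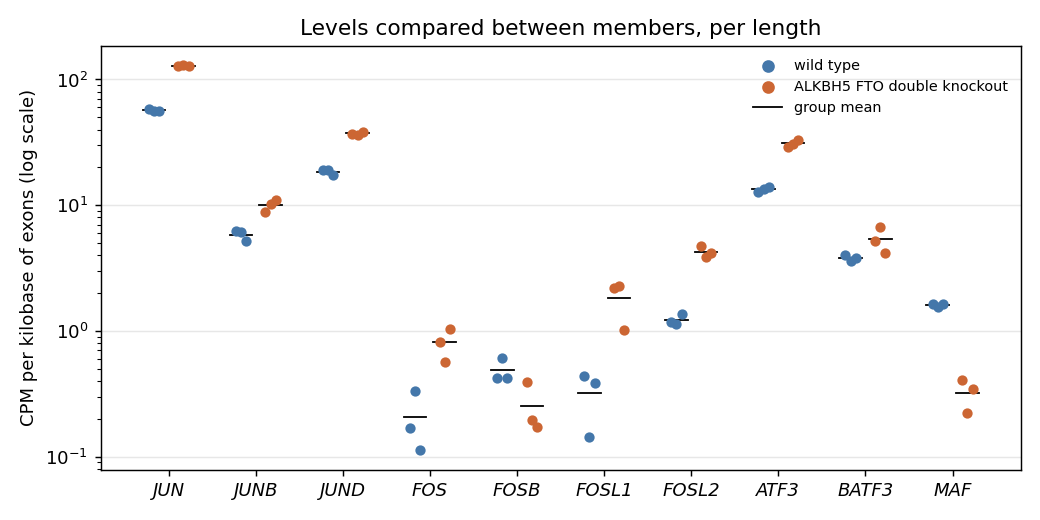
The same libraries with CPM divided by the kilobases of exon sequence over all transcripts of each gene, on a log scale. Comparisons between genes depend on this choice of length. JUN, JUND and ATF3 are the highest in both groups, and the FOS genes lie below the JUN genes.

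Genes near the 10 were examined because parts of several chromosomes moved together in these cells. Around FOSB, other tested genes within 10 Mb had a median log2 fold change of -0.27, and 198 of 373 fell while 31 rose. Around JUNB and JUND, on the other arm of chromosome 19, the medians were 0.14 and 0.15, with 137 of 330 and 100 of 234 neighbours rising, many of them shared by both windows. Around FOSL1 the median was 0.18, with 127 of 264 rising. These 4 genes thus moved in the direction of their surroundings, and the part of position in their values was not tested. They differed from the local medians by -0.70 (FOSB), 0.63 (JUNB), 0.86 (JUND) and 2.32 (FOSL1). Around JUN, FOS, FOSL2, ATF3, BATF3 and MAF the medians within 10 Mb were between -0.10 and 0.03. None of the 120 tested neighbours of MAF within 10 Mb had a larger change in size. Larger changes were found in 1 of 107 neighbours of FOS, 1 of 264 of FOSL1 and 3 of 81 of JUN. For FOSL2, ATF3 and JUND it was 4 of 113, 8 of 102 and 12 of 234. For FOSB, JUNB and BATF3 it was 14 of 373, 25 of 330 and 24 of 103. The 10 genes were chosen from this comparison, so nothing is read from these counts. Within 2 Mb, 24 neighbours of ATF3 had a median of -0.10, against 1.22 for ATF3. The 7 neighbours of JUN within 2 Mb had a median of 0.21, with 3 rising and 1 falling. The highest of them was at 1.18, as was JUN. JUN thus also moved in the direction of its closest surroundings, and the part of position was not tested. Medians within 2 Mb were 0.08 around FOSL2, -0.04 around MAF, -0.07 around FOS and -0.11 around BATF3.

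**Figure D3:**
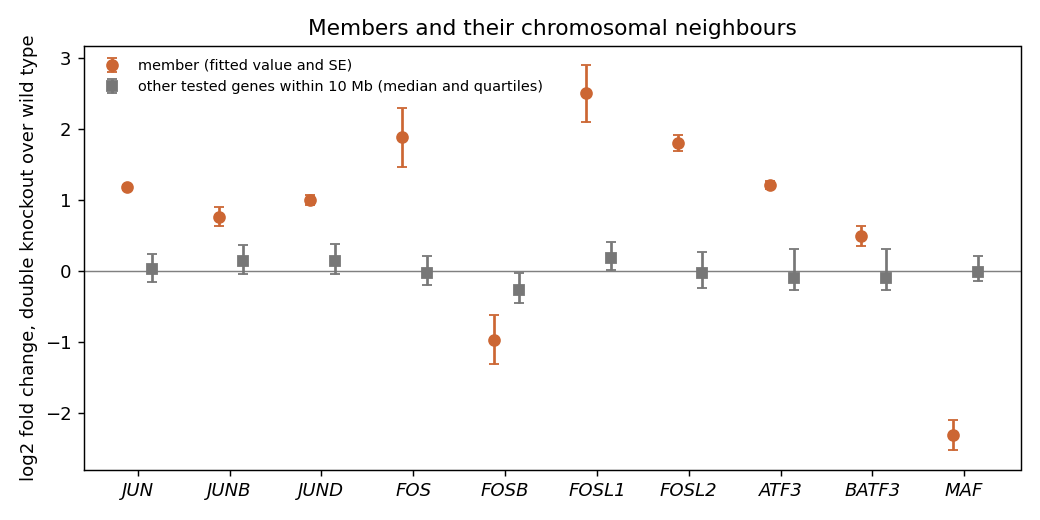
Fitted log2 fold change of each gene with its SE (circles), beside the median and quartiles of the other tested genes within 10 Mb (squares). The squares lie between -0.27 and 0.18, lowest for FOSB and highest for FOSL1. The circles of 8 genes lie above 0 and those of FOSB and MAF below.

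Sequence features of the mRNAs were counted on the principal GENCODE transcript of each gene, since many early response mRNAs carry AU-rich elements that speed their decay and since the enzymes knocked out act on methylated adenosine. The AU-rich pentamer ATTTA occurred 5 times in the 806 bases of the FOS 3′ UTR, 9 times in the 4864 bases of FOSL2, 3 times each in JUN, FOSB and ATF3, 2 times each in JUNB and MAF and 1 time each in JUND, FOSL1 and BATF3. Over all tested protein-coding genes the median was 2. Per kilobase of 3′ UTR the median was 1.76. FOS had 6.20, JUNB 4, MAF 3.22, BATF3 2.68, ATF3 2.45, JUN 2.33 and FOSL2 1.85, all above that median. JUND, at 1.47, FOSB, at 1.39, and FOSL1 lay below it. The AU-rich nonamer TTATTTATT occurred in the 3′ UTR of 2 of the 10 genes, FOS and FOSL2, against 8.68% of all. Both sites are shown with the nonamer in capitals, FOS from base 636 to 665 and FOSL2 from base 3907 to 3936 of the 3′ UTR.
FOS: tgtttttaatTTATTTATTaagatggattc
FOSL2: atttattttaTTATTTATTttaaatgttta
GGACT, the most frequent sequence context of N6-methyladenosine, occurred 1.41 times per kilobase in JUN, 1.48 in ATF3, 1.39 in FOS, 1.32 in FOSB and 0 times in FOSL1, against a median of 0.932 over all. 7 of the 10 mRNAs lay above that median. FOSL1 without any copy and JUN with 5 copies were both higher in the double knockout, and MAF, with 1 copy, and FOSB, with 5, were both lower. A match to these letters does not show that a base is methylated, and any link between copies and direction was not tested.

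Other bZIP genes moved in both directions. Of 43 listed genes outside the 10, 37 were tested, and 14 rose, 6 fell and 17 did not pass (median log2 fold change 0.17, against 0.01 over all genes). That is 37.8% rising and 16.2% falling, against 28.6% and 28.5% of all tested genes. With libraries scaled by the spike-in RNAs 10 rose and 7 fell. 3 of the 37, MAFA, MAFF and NRL, reached the filter's level in all libraries of the double knockout only, and without them 12 of 34 rose and 6 fell, with a median of 0.07.

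Among the MAF relatives, MAFF had the largest fold change of these genes. MAFF, a small MAF protein that lacks an activation domain, had wild type levels of 1.51, 0.951 and 1.81 CPM and double knockout levels of 5.83, 5.85 and 4.48 CPM. MAFF rose by 1.94 on the log2 scale (SE 0.29, edgeR adjusted p = 3.69e-10), with 28 and 101 reads over the groups. MAFA rose by 0.91 (SE 0.30, adjusted p = 0.00627), a call lost with DESeq2 (adjusted p = 0.0598) and without double knockout replicate 3 (0.0599). Because MAFF and MAFA reached the filter's level in all libraries of the double knockout only, their p-values are no independent support. MAFK rose by 0.38, and MAFG (0.19) and NRL (0.17) did not pass. None of the 6 tested relatives fell. BATF2 (0.32) and JDP2 (-0.03), a repressor that binds JUN proteins, did not pass, and BATF was below the filter.

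In the C/EBP family CEBPA, a differentiation factor, stood at 18.4 ± 0.716 CPM in wild type and 39.2 ± 0.935 CPM in double knockout, a rise of 1.09 (SE 0.09, adjusted p = 8.72e-28), and CEBPG rose by 0.40. CEBPB and DDIT3 did not pass. NFIL3, TEF and HLF, members of a group that includes clock-controlled factors, rose by 0.75, 0.66 and 0.52, and DBP did not pass. Neighbours of NFIL3 within 10 Mb had a median of 0.20, with 52 of 104 rising and 13 falling. BACH2, a repressor that works with small MAF proteins, rose by 0.59 and NFE2L1 rose by 0.18. NFE2L3 fell by 0.85 (adjusted p = 2.00e-13), among neighbours within 10 Mb with a median of -0.33. NFE2L2 and BACH1, the activator and repressor of antioxidant genes, had values of -0.01 and 0.03 and did not pass.

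The ATF and CREB family, whose members bind the CRE, moved in both directions. Of 16 tested, 4 rose, 5 fell and 7 did not pass, shares near those of all tested genes (28.6% rising and 28.5% falling). CREB3L4 rose by 0.57, CREB3 by 0.43, CREBL2 by 0.40 and CREB5 by 0.34. ATF2, a partner of JUN on the CRE, fell by 0.51, from 105 ± 4.17 to 73.3 ± 3.84 CPM. CREB1 fell by 0.45, ATF4 by 0.38, CREB3L2 by 0.37 and ATF1 by 0.21. ATF7 had 1 read in all and overlaps another gene on its strand. MAFF, MAFA, CEBPA, NFIL3, TEF, BACH2, NFE2L3 and CREB3L4 were named for the size of their log2 fold changes in these data. The remaining other bZIP genes were named after their values were seen, so neither choice was independent of the values.

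**Figure D4:**
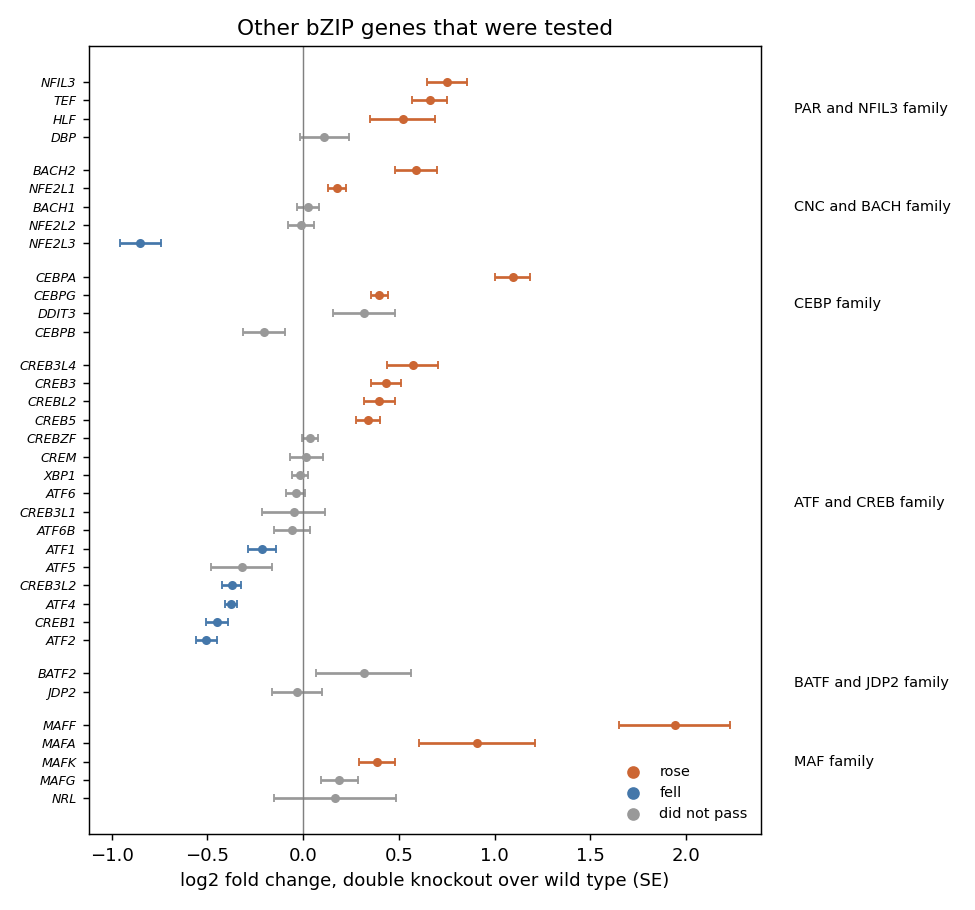
Fitted log2 fold change with SE for other bZIP genes that were tested, grouped by family. Orange genes rose, blue genes fell and grey genes did not pass. MAFF and CEBPA are furthest to the right, and NFE2L3 is furthest to the left.

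The MAP kinase cascades, which switch AP-1 on, had members in both directions. Of 38 listed genes, all tested, 9 rose, 13 fell and 16 did not pass (median -0.05), and with spike-in scaling 3 rose and 13 fell. The shares, 23.7% rising and 34.2% falling, lie near the 28.6% and 28.5% of all tested genes. MAP2K6, an activator of p38, fell by 0.61 and MAP3K4 fell by 0.57, the latter among neighbours with a median of -0.37. The p38 gene MAPK11 rose by 0.90 (SE 0.21, adjusted p = 4.26e-05). The kinases that phosphorylate JUN itself, JNK1, JNK2 and JNK3, are encoded by MAPK8, MAPK9 and MAPK10, which were named after their values were seen. MAPK8 fell by 0.36, from 70.0 ± 3.78 to 54.6 ± 2.09 CPM, and MAPK9 fell by 0.31, from 129 ± 0.989 to 105 ± 3.85 CPM. MAPK10, at 6.57 ± 0.134 and 5.44 ± 0.701 CPM, had a log2 fold change of -0.27 and did not pass. Transcript levels do not show kinase activity.

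SRF, TCF and MEF2 factors bind the promoters of early response genes. Of 10 listed, 9 were tested, and 3 rose, 5 fell and 1 did not pass (median -0.12), against 1 rising and 5 falling with spike-in scaling. With 9 genes, these are 33.3% rising and 55.6% falling, beside 28.6% and 28.5% of all tested genes. ELK3 rose by 0.39 and ELK1 by 0.31, the latter no longer passing with spike-in scaling (0.20, adjusted p = 0.0898). MEF2C fell by 0.48, the SRF coactivator MRTFB by 0.29 and ELK4 by 0.28, while SRF rose by 0.13. SRF and ELK4 are named here with their values already known.

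Of 19 listed genes for turnover and cofactors of AP-1 proteins and their mRNAs, 18 were tested, and 3 rose, 6 fell and 9 did not pass (median -0.04). With spike-in scaling 0 rose and 6 fell. The falling share of 33.3% lies near the 28.5% of all tested genes, and 16.7% rose against 28.6%. FBXW7, part of a ubiquitin ligase that marks JUN for destruction, went from 111 ± 4.29 to 73.8 ± 3.46 CPM and fell by 0.59 (SE 0.05, adjusted p = 3.80e-25), among neighbours on chromosome 4 with a median of -0.53. ITCH, another ligase for JUN and JUNB, fell by 0.36 from 159 ± 6.14 to 124 ± 4.67 CPM, and its neighbours had a median of 0.02. HNRNPD, which binds AU-rich elements and promotes mRNA decay, fell by 0.84 (adjusted p = 0.00117), among neighbours with a median of -0.55. The coactivator gene CREBBP fell by 0.31. ZFP36 (-0.02), ZFP36L1 (0.11) and ZFP36L2 (-0.06), whose products bind AU-rich elements, did not pass and were also named with their values known.

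Genes widely described as AP-1 targets were mostly higher where they could be measured. Of 34 listed, 17 were tested, and 11 rose, 1 fell and 5 did not pass (median 0.45), with 10 rising and 1 falling after spike-in scaling. Rises made up 64.7% of those tested, against 28.6% of all genes. The filter weighs on this count: 5 genes, among them MMP12, PLAU, CD44 and LIF, reached its level in all libraries of the double knockout only, and of the other 12, 6 rose, 1 fell and 5 did not pass (median 0.16). The list was drawn up with earlier results of these data known, so it is no independent evidence of AP-1 activity.

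The matrix metalloproteinase MMP12 had wild type levels of 0.275, 0.272 and 0.182 CPM and double knockout levels of 13.3, 12.5 and 13.9 CPM, that is 5 and 248 reads and a ratio of 53.2 (counting interval 22.5 to 165). The other 5 listed MMP genes of the same cluster on chromosome 11, MMP1, MMP3, MMP7, MMP10 and MMP13, were below the filter, with 2 reads summed over wild type and 49 summed over double knockout, 31 of these in MMP10. CD44, a hyaluronan receptor, had 1 and 41 reads, a ratio of 44.0 with a wide counting interval of 7.47 to 1780. The single wild type read was in replicate 1, and without that library, which leaves wild type at 0, the fitted log2 fold change went from 5.00 to 6.80, a value that depends on the prior count. PLAU, the urokinase gene, had 16 and 65 reads, a ratio of 4.36 (counting interval 2.49 to 8.07, adjusted p = 1.14e-07). The cytokine gene LIF rose by 1.46 (SE 0.29, adjusted p = 2.07e-06), with 34 and 88 reads. PLAU and LIF reached the filter's level in all libraries of the double knockout only, so these p-values are no independent support.

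The other targets gave a more mixed picture, and the genes in this paragraph were named after their values were seen. HBEGF, an epidermal growth factor receptor ligand, rose by 1.34, from 5.58 ± 1.23 to 14.5 ± 0.919 CPM. LAMA3, TGFB1, TIMP1, the intermediate filament gene VIM and EZR rose by 0.55, 0.54, 0.45, 0.45 and 0.18. The gap junction gene GJA1 fell by 1.03, from 99.9 ± 3.56 to 48.9 ± 1.57 CPM. CCND1 (-0.13), the cyclin gene most often named as a JUN target, VEGFA (-0.09), HMOX1, MT2A (0.05) and PLAUR (0.15) did not pass. VIM also stands on the list of markers for this line.

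**Figure D5:**
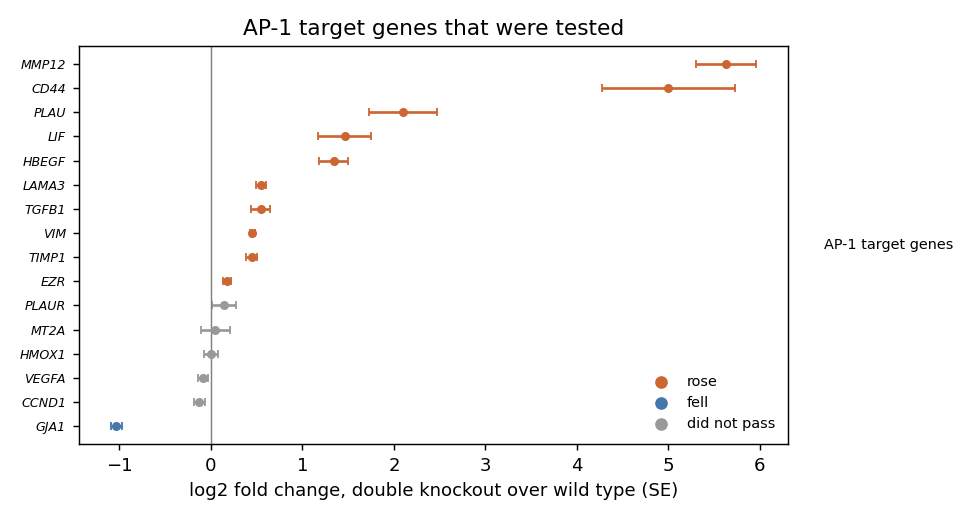
Fitted log2 fold change with SE for AP-1 target genes that were tested, coloured as in the plot of other bZIP genes. MMP12 and CD44 are furthest to the right and had few or no reads in wild type, and GJA1 is the gene that fell.

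Targets described for MAF in lens and lymphoid cells could hardly be followed in this line. Of 12 listed, 11 were below the filter, among them the crystallin genes CRYAA, CRYAB and CRYGD, each with 0 reads in all 6 libraries. The kinase gene NUAK1 was the 1 tested and rose by 0.29 (SE 0.09, adjusted p = 0.00228), a call lost with spike-in scaling (0.19, adjusted p = 0.206). Its neighbours within 10 Mb had a median of 0.14, with 52 of 121 rising and 13 falling.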

How the data were processed

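Per the submitters' processing notes, reads were trimmed with cutadapt 2.10, aligned with STAR 2.7.6a to hg38 and counted with featureCounts, for which no version, strand setting or rule on multimapped reads is stated. The deposited values are raw read counts per gene, whole numbers without normalisation, for 58721 genes, all matched to GENCODE release 29, and 4 spike-in entries, which stayed out of library sizes. Per the labels, in vitro transcribed GFP (7 pg) and FLuc (1.2 pg) RNAs went into 1 µg of RNA. The labels do not say whether replicates came from separate cultures, so p-values measure only the spread between these libraries, which may be technical.

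In R 4.3.3, edgeR 4.0.16 filtered genes (filterByExpr, minimum count 10, minimum total 15), scaled libraries by TMM and fitted all 6 libraries with a robust quasi-likelihood model. Two-sided p-values were adjusted by Benjamini and Hochberg over 14180 genes (threshold 0.05). SEs were taken from the F statistics. The procedure was also run on simulated counts with few changed genes and the same biological spread for every gene, unlike these data. That run does not show how well the scaling or the error rate holds here. Counting intervals are exact 95% (Clopper-Pearson) and cover counting error only. Alternatives were DESeq2 1.42.0 and its size factors, limma 3.58.1 voom, spike-in scaling, other filters, a replicate block and leaving out each library.

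The 10 genes and all lists were chosen with earlier results of these data known. Named from each list were the called genes with the largest log2 fold changes and at least 1 CPM in the higher group: 8 for other bZIP genes, 3 for MAF targets and 4 for the others. Motifs were chosen after the promoter windows were seen. MRTFA and MRTFB were matched through older symbols. Some genes of the lists are counted but not reported by name here or drawn in the plots.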

Additional observations from a re-analysis of the deposited data

How the results depend on the processing

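The 10 genes described kept their direction under every alternative that gave a value (13 settings, or 12 for FOS, FOSB and FOSL1, which a mean of 5 CPM removes). Their log2 fold changes ranged from 1.07 to 1.20 for JUN, 0.66 to 0.84 for JUNB, 0.90 to 1.02 for JUND, 1.65 to 2.42 for FOS, 2.11 to 2.83 for FOSL1, 1.70 to 1.87 for FOSL2, 1.11 to 1.25 for ATF3, 0.29 to 0.64 for BATF3, -1.41 to -0.76 for FOSB and -2.50 to -2.09 for MAF. Scaling by the GFP and FLuc spike-in counts lowered the median of all genes by 0.11, with 2133 genes higher and 4236 lower against 4055 and 4038 with TMM. It left 0 MAF targets called against 1, and turned HOOK2 from 0.04 to -0.069, as leaving out double knockout replicate 1 did (-0.032). The cause was not tested. DESeq2 called 6500 genes, 3100 higher and 3400 lower. Replicate numbers did not pair the libraries: correlations of deviations from group means were 0.0082, 0.0123 and 0.0107 over 14180 genes. With the replicate block 8109 genes changed against 8093, with 20 other bZIP genes called in both fits. Depth limits FOS, FOSL1, FOSB, MAF, CD44 and MMP12, which had few reads in at least 1 group.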
